A study of Mus musculus with 45 samples.

Results

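GA-binding protein (GABP) is built from a DNA-binding subunit encoded by *Gabpa* and a partner subunit encoded by *Gabpb1* or *Gabpb2*. These 3 genes were taken by symbol from the 55385 genes of the deposited RNA tables, and all 3 were found once, with the identifiers ENSMUSG00000008976.16 (*Gabpa*), ENSMUSG00000027361.15 (*Gabpb1*) and ENSMUSG00000038766.16 (*Gabpb2*). All 3 passed the filter on low counts at every stage. RNA was measured in 18 of the 45 samples of the series, and the others, which hold chromatin assays, were not analysed here. Every library came from mouse embryos or embryonic stem (ES) cells of the *Gabpa*-dTAG/dTAG genotype, in which both *Gabpa* alleles end in an FKBP F36V degron with an HA tag, so that the DMSO controls carry the tagged protein as well. The small molecule dTAG13 brings such a tagged protein to an E3 ubiquitin ligase for degradation, and DMSO is its solvent. Late 2-cell embryos were treated from the zygote stage (3 libraries with DMSO and 3 with dTAG13). Morulae were treated from the 4-cell stage, and the inner cell mass (ICM) labelled E4.5 was treated from the early blastocyst (2 and 2 libraries each). Embryos received 1 µM dTAG13 and came from dams of 7 to 8 weeks and sires of 8 to 12 weeks, on a line backcrossed to C57BL/6J. The ES cells are a picked E14-derived clone in 2i/LIF medium that received 0.5 µM for 24 h (2 and 2 libraries). The ICM was freed of its outer trophectoderm (TE) by immunosurgery and holds epiblast and primitive endoderm. The study calls the libraries of a group biological replicates. The labels do not say what was collected separately, and p-values measure the spread between these libraries.

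GABPA belongs to the ETS family of transcription factors, which bind DNA at a GGAA core. GABPB1 and GABPB2 do not bind DNA themselves. They hold on to GABPA through ankyrin repeats, carry the nuclear localisation and activation functions, and in their longer isoforms pair through a leucine zipper, so that a heterotetramer occupies paired ETS sites. The complex is known for the promoters of housekeeping genes, among them nuclear genes for the respiratory chain and for mitochondrial DNA transcription.

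On GRCm38, *Gabpa* lies on the plus strand of chr16:84834925-84863779 and has 5 annotated transcripts, *Gabpb1* on the minus strand of chr2:126627442-126676337 with 9, and *Gabpb2* on the minus strand of chr3:95181766-95217916 with 9. The degron was joined to the C-terminus of GABPA. The guide used for this insertion is shown because it fixes where the tag lies. It matches the plus strand at chr16:84860589-84860608, in an exon of the long transcript. Capitals mark the stop codon at chr16:84860601-84860603 and, at the 3′ end, the PAM. The expected cut falls 2 bases after the stop codon.
Gabpa guide: gacaaagagattTGAgacctAGG

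The promoters are shown because the protein removed is itself an ETS factor and the transcripts of its own subunits were measured after its removal. The windows are RefSeq promoters on GRCm38.p6 of 300 bases, read along the gene, with the start site near the 3′ end. Capitals mark CCGGAA on either strand, the core of the known GABP motif.
Gabpa promoter, chr16:84834874-84835173, plus strand: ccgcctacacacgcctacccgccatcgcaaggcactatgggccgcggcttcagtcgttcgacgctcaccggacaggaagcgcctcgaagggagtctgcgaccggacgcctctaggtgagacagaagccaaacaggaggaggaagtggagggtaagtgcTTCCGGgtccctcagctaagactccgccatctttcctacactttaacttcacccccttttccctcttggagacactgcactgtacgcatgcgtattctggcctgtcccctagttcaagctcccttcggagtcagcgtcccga
Gabpb1 promoter, chr2:126675543-126675842, minus strand: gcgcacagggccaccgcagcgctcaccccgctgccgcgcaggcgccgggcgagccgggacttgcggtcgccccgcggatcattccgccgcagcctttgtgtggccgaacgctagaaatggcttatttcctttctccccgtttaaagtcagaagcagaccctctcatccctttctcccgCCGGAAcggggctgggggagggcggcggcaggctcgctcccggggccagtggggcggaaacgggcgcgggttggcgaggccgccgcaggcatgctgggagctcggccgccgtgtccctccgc
Gabpb2 promoter, chr3:95217893-95218192, minus strand: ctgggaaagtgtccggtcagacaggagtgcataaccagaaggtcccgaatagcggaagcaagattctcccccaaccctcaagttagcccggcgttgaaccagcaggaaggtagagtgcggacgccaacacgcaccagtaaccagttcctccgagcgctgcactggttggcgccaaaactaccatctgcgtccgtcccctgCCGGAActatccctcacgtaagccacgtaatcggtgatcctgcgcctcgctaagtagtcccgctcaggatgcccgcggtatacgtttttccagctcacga
Each of these 3 windows held CCGGAA once, counted over both strands. It began 92 bases before the start site in *Gabpa*, on the opposite strand, 72 bases before it in *Gabpb1* and 50 bases before it in *Gabpb2*. None of the matches lay in an annotated exon of its own gene. Among all 32851 RefSeq promoter windows of that length, 14.9% held CCGGAA. The longer CCGGAAG, which contains it, was found in the *Gabpa* window only among the 3 and in 8.9% of all windows. The other RefSeq window of *Gabpb1*, which lies downstream of the one shown, held neither.

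Expected counts summed to between 9457933 and 27660132 per library. Labels were checked by markers with a mean TPM of at least 1 in controls. Of 6 late 2-cell markers, 6 reached it in late 2-cell embryos, 2 in morulae, 2 in the ICM and 4 in ES cells. All 5 primitive endoderm markers did so in the ICM, against 2 in morulae and 0 in ES cells. All 6 epiblast markers reached it in the ICM, but also in morulae and ES cells. The 4 morula markers reached it in morulae, at the late 2-cell stage and in the ICM. That list thus did not set morulae apart. Some cell type markers moved with the treatment. In the ICM, the summed TPM of 7 TE markers ranged from 67.5 to 73.3 in controls and from 771 to 772 after dTAG13, and that of 6 epiblast markers from 717 to 741 and from 286 to 293. That of 5 primitive endoderm markers ranged from 221 to 230 and from 295 to 297, where *Gata4*, *Gata6* and *Pdgfra* rose and *Sox17* and *Sox7* fell. At the late 2-cell stage, the summed TPM of 4 oocyte markers ranged from 1330 to 1344 in controls and from 1689 to 1925 after dTAG13. Most of that sum was *Oosp1*, at 1170 to 1180 TPM in controls and 1484 to 1717 after dTAG13. From bulk RNA alone, fewer cells of a type and less RNA per cell cannot be told apart. For the epiblast, the paper reports that the ICM was collected at the mid-blastocyst stage, before the treatments differed in epiblast cell number. The 2 ICM libraries of each group lay unusually close together, with a spread 1.63 and 1.69 times the sampling noise against 2.86 to 16.1 times in the other groups, so that ICM adjusted p-values were far smaller than those of other stages for like folds.

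In control embryos, all 3 genes were most abundant at the late 2-cell stage and much lower afterwards. Levels are given as TPM, which are scaled for transcript length so that genes can be compared. That length is an estimate weighted over the transcripts of each gene, and for *Gabpa* and *Gabpb2* it differed between stages. *Gabpa* stood at 106, 116 and 87.3 TPM in the late 2-cell DMSO libraries, at 6.67 and 8.13 in morulae, at 10.1 and 11.2 in the ICM and at 7.37 and 5.76 in ES cells. *Gabpb1* stood at 159, 188 and 146 TPM, then at 18.9 and 29.7, at 32.3 and 30.4, and at 18.6 and 17.1. *Gabpb2* stood at 38.2, 39.9 and 31.1 TPM, then at 2.87 and 2.85, at 3.76 and 3.91, and at 2.58 and 2.89. *Gabpb1* was thus the most abundant subunit transcript and *Gabpb2* the least in every control library. In 1 edgeR fit of the 9 control libraries, all 3 genes fell from the late 2-cell stage to the morula, where 38.0% of all genes tested fell. The log2 change in counts was -2.54 ± 0.16 for *Gabpa*, -2.41 ± 0.20 for *Gabpb1* and -1.42 ± 0.20 for *Gabpb2* (SE, n = 3 and 2, adjusted p = 4.8e-08, 3.8e-07 and 5.3e-05). The median gene changed by -0.28 in this comparison. The size and order of the falls depended on the scale. Control mean TPM went from 103 to 7.40 for *Gabpa*, from 164 to 24.3 for *Gabpb1* and from 36.4 to 2.86 for *Gabpb2*. The mean weighted length of *Gabpb2* went from 1710 to 5977 bases between these controls. From the morula to the ICM, where 45.7% of genes passed in either direction, none of the 3 passed by edgeR, and none did at an unadjusted p of 0.05, by DESeq2 or by limma. The log2 differences were -0.14 ± 0.17, 0.19 ± 0.20 and -0.15 ± 0.22 (SE, n = 2 and 2). From the ICM to ES cells, *Gabpb2* alone passed as lower (log2 change -0.65 ± 0.22, SE, n = 2 and 2, adjusted p = 0.029), beside 20.7% of all genes. *Gabpa* and *Gabpb1* gave -0.38 ± 0.16 and -0.11 ± 0.20 (adjusted p = 0.078 and 0.71). The *Gabpb2* call was lost without either ICM library (-0.66 and -0.63, adjusted p = 0.11 and 0.13), without ES replicate 1 (-0.40, adjusted p = 0.20), with upper-quartile scaling (-0.51, adjusted p = 0.066), without a count filter (-0.59, adjusted p = 0.063) and by limma on log2(TPM + 1) (-0.37, adjusted p = 0.11). *Gabpa* and *Gabpb1* passed as lower with library totals, as *Gabpb2* did, and by limma, where *Gabpb2* did not.

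**Figure D1:**
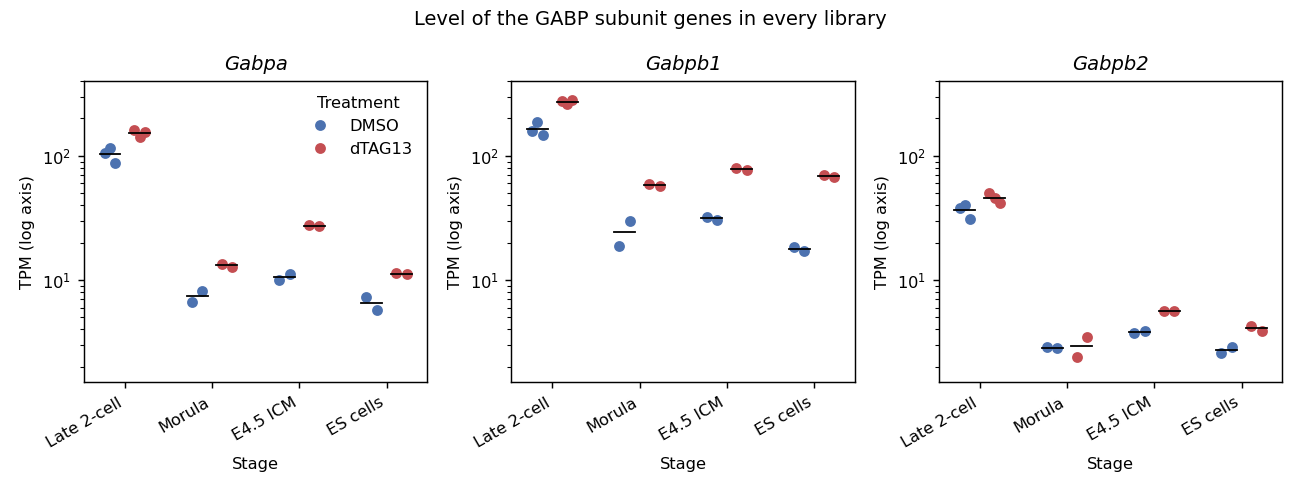
TPM (log axis) of each subunit gene by stage in the DMSO (blue) and dTAG13 (red) libraries, with the group mean as a line and each point a library. Late 2-cell embryos stand highest for every gene, and the dTAG13 points of *Gabpa* and *Gabpb1* lie above the DMSO points at all 4 stages.

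*Gabpa* encodes the protein that dTAG13 removes. Since the degron acts on the protein, its transcript is no check of the removal. Its mRNA was not lower in any treated group. At the late 2-cell stage it stood at 162, 141 and 156 TPM with dTAG13, above every control library. The counts rose by 0.52 ± 0.11 on the log2 scale, a 1.43-fold rise (SE, n = 3 and 3, adjusted p = 0.012), beside 1.32% of all genes that rose. Of the oocyte markers given earlier, *Oosp1* also rose here by edgeR (0.39, adjusted p = 0.020). *Zp3*, *Gdf9* and *Bmp15* did not pass (0.35, 0.36 and 0.04, adjusted p = 0.077, 0.20 and 0.91). The part of these markers in the result was not tested. The *Gabpa* call was lost without dTAG13 replicate 1 (0.50, adjusted p = 0.056) or dTAG13 replicate 3 (0.50, adjusted p = 0.050). In morulae it stood at 13.6 and 12.8 TPM with dTAG13, which does not overlap the 2 controls, but the change of 0.74 ± 0.20 missed the threshold (SE, n = 2 and 2, adjusted p = 0.15). With 1 fit of all 18 libraries it passed (0.81, adjusted p = 0.0036), as it did with a replicate block (0.74, adjusted p = 0.045), although replicate numbers did not pair the libraries.

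In the ICM, *Gabpa* stood at 27.5 and 27.3 TPM with dTAG13, 2.58 times the control mean of 10.6. The counts rose by 0.95 ± 0.05 on the log2 scale, a 1.93-fold rise (SE, n = 2 and 2, adjusted p = 7.8e-19), in a comparison in which 38.4% of all genes rose. The TE, epiblast and primitive endoderm marker sums given earlier moved with this result, and their part in it was not tested. In ES cells *Gabpa* stood at 11.3 and 11.1 TPM with dTAG13, and its counts rose by 0.93 ± 0.13 (SE, n = 2 and 2, adjusted p = 0.0014), beside 26.5% of all genes. In ES cells the summed TPM of the TE markers overlapped between groups, at 109 to 140 in controls and 131 to 137 after dTAG13. That of the 6 epiblast markers was lower after dTAG13, at 297 to 321 against 524 to 563. By edgeR *Nanog*, *Klf2* and *Utf1* fell, and *Sox2*, *Fgf4* and *Tdgf1* did not pass. That of 6 naive ES cell markers, *Nanog* among them, was lower too, at 211 to 221 against 248 to 281. Of these, *Nanog* fell by 1.12 (adjusted p = 0.00051). *Klf4* and *Tbx3* rose by 0.48 and 0.63 (adjusted p = 0.033 and 0.011), and *Esrrb*, *Zfp42* and *Tfcp2l1* did not pass. That of the 4 oocyte markers, at 2.01 to 3.39 against 9.35 to 13.5, was nearly all *Zp3*. The part of these markers in the ES cell results was not tested.

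*Gabpb1* encodes the partner subunit with the highest level here, and it rose at all 4 stages. At the late 2-cell stage it stood at 276, 262 and 280 TPM with dTAG13, all above the controls, and the counts rose by 0.65 ± 0.10 on the log2 scale (SE, n = 3 and 3, adjusted p = 0.0023). In morulae it stood at 59.6 and 56.7 TPM with dTAG13, again above both controls, and rose by 1.28 ± 0.23 (SE, n = 2 and 2, adjusted p = 0.024), where 0.161% of genes rose. The 2 morula controls differed from each other (18.9 and 29.7 TPM). Without DMSO replicate 1, the lower of them, the change was 1.01 and missed the threshold (adjusted p = 0.057), and limma on log2(TPM + 1) gave 1.26 (adjusted p = 0.20).

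In the ICM, *Gabpb1* stood at 79.6 and 76.8 TPM with dTAG13, 2.49 times the control mean of 31.4, and the counts rose by 1.33 ± 0.04 (SE, n = 2 and 2, adjusted p = 6.6e-26). In ES cells it stood at 70.5 and 66.9 TPM with dTAG13 against 18.6 and 17.1 with DMSO, the largest of the 12 changes. The counts rose 4.30-fold, by 2.10 ± 0.11 on the log2 scale (SE, n = 2 and 2, adjusted p = 4.0e-05). Its level with dTAG13 in ES cells was thus near that in the ICM, where the controls had stood higher.

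*Gabpb2*, the paralogous partner subunit, had the lowest level and passed no test before the ICM stage. At the late 2-cell stage it stood at 50.2, 46.0 and 41.3 TPM with dTAG13. These lie just above the controls, yet its counts differed by 0.04 ± 0.12 on the log2 scale (SE, n = 3 and 3, adjusted p = 0.91), with a 95% interval of -0.24 to 0.32. In morulae it stood at 2.39 and 3.48 TPM with dTAG13, on either side of the controls, and the interval of the log2 difference was -0.40 to 0.68 (adjusted p = 0.85). In the ICM it stood at 5.62 and 5.66 TPM, and the counts rose by 0.43 ± 0.08 (SE, n = 2 and 2, adjusted p = 1.0e-05). With 1 fit of all 18 libraries that call was lost (0.44, adjusted p = 0.092). In ES cells it stood at 4.29 and 3.88 TPM with dTAG13, 1.49 times the control mean of 2.73, while its counts rose 2.23-fold, by 1.16 ± 0.21 on the log2 scale (SE, n = 2 and 2, adjusted p = 0.0035). On the log2(TPM + 1) scale limma gave 0.45 for this gene (adjusted p = 0.070).

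**Figure D2:**
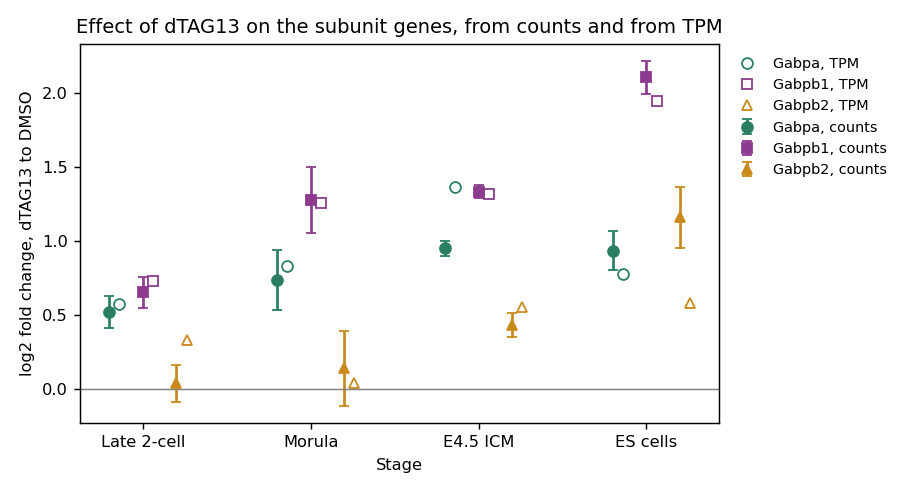
log2 fold change of each subunit gene, dTAG13 to DMSO, at the 4 stages. Filled symbols are edgeR estimates from counts with their SE, open symbols the log2 ratio of group mean TPM. *Gabpb1* rises to 2.10 in ES cells, and counts and TPM part most for *Gabpa* in the ICM and *Gabpb2* in ES cells.

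By adjusted p alone, 2 of the 3 genes rose at the late 2-cell stage (1.32% of all genes), 1 in morulae (0.161%), 3 in the ICM (38.4%) and 3 in ES cells (26.5%), and none of the 3 fell at any stage. A stricter rule also asked for a fold change of 2 and a mean FPKM of 1 in either group. It was met by 0 of 3 at the late 2-cell stage, where 0.476% of genes met it as higher, by *Gabpb1* in morulae (0.154%), by *Gabpb1* in the ICM (12.1%), and by *Gabpb1* and *Gabpb2* in ES cells (12.4%). DESeq2 gave the same counts under that rule. *Gabpa* in the ICM, at 1.93-fold by counts and 2.58-fold by TPM, met it under upper-quartile scaling, library totals and limma, and with upper-quartile scaling all 3 genes met it in ES cells. *Gabpb2* in ES cells no longer met it without DMSO replicate 1 (log2 change 0.91). Over all 4 stages together, with treatment labels exchanged within stages, the mean log2 difference in TPM was 0.89 for *Gabpa*, 1.32 for *Gabpb1* and 0.37 for *Gabpb2* (two-sided exact permutation test, adjusted p = 0.00093, 0.00093 and 0.0089 over 6 measures). The unadjusted p of the first pair, 0.00046, is the smallest that the 4320 arrangements can give. Without the ES libraries *Gabpb2* gave 0.30 (exact permutation, adjusted p = 0.053).

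The balance between subunit transcripts also differed between treatments. In the late 2-cell controls there were 1.497, 1.62 and 1.67 *Gabpb1* transcripts per *Gabpa* transcript, by TPM, and 1.70, 1.85 and 1.79 with dTAG13. In morulae the controls had ratios of 2.84 and 3.65 and the treated libraries of 4.39 and 4.44. In the ICM the controls had 3.21 and 2.72 and the treated libraries 2.89 and 2.81, inside the range of the controls. By counts, however, *Gabpb1* rose more than *Gabpa* there, by 1.33 against 0.95 on the log2 scale. In ES cells the controls had 2.53 and 2.98 and the treated libraries 6.23 and 6.01, the widest gap. Over the 4 stages the ratio rose by 0.43 on the log2 scale (two-sided exact permutation test, adjusted p = 0.013). It missed the threshold without the ES libraries (0.19, exact permutation, adjusted p = 0.078) and without the morula libraries (0.42, adjusted p = 0.078).

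By TPM over the 4 stages together, *Gabpb2* transcripts became scarcer against both other subunits. By counts, *Gabpb2* rose more than *Gabpa* in ES cells (1.16 against 0.93 on the log2 scale) and less at the other stages. Per *Gabpa* transcript there were 0.36, 0.34 and 0.36 in the late 2-cell controls and 0.31, 0.33 and 0.26 with dTAG13. In the ICM there were 0.37 and 0.35 with DMSO against 0.20 and 0.21 with dTAG13, in morulae 0.43 and 0.35 against 0.18 and 0.27, and in ES cells 0.35 and 0.50 against 0.38 and 0.35, which overlap. Over the 4 stages the *Gabpb2* to *Gabpa* ratio fell by 0.52 on the log2 scale and the *Gabpb2* to *Gabpb1* ratio fell by 0.95 (two-sided exact permutation test, adjusted p = 0.0042 and 0.00093). *Gabpb2* made up 17.5 to 19.4% of the summed TPM of both partner subunits in late 2-cell controls and 12.9 to 15.4% with dTAG13, and in ES cells 12.2 to 14.4% and 5.48 to 5.74%.

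**Figure D3:**
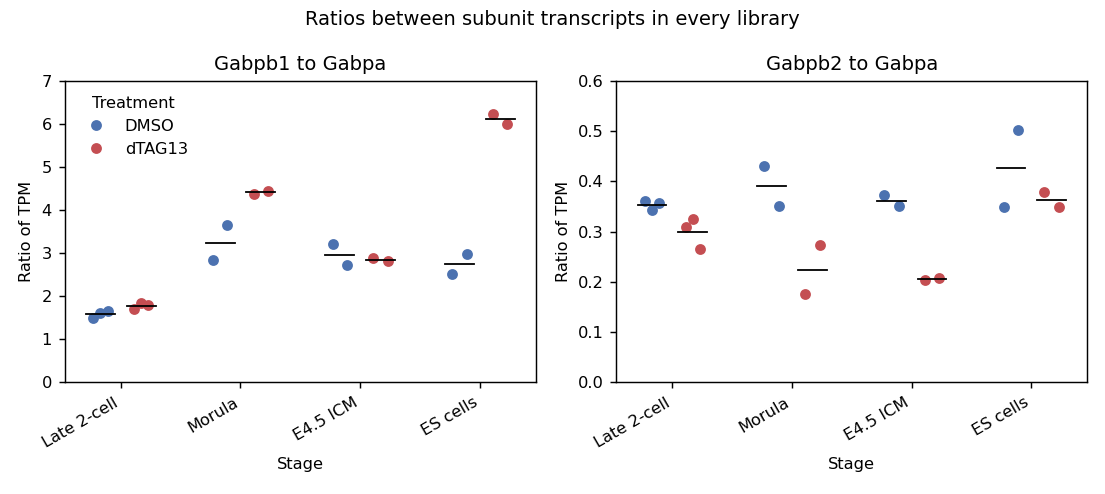
Ratio of TPM between subunit transcripts by stage in each DMSO (blue) and dTAG13 (red) library, with group means as lines. The *Gabpb1* to *Gabpa* ratio reaches 6.01 to 6.23 in treated ES cells, while the *Gabpb2* to *Gabpa* ratio drops to 0.20 and 0.21 in the treated ICM.

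Whether the response differed between stages was tested as a difference of log2 changes in 1 edgeR fit of the 18 libraries, for 6 pairs of stages. The median of all genes was -0.11 between the late 2-cell stage and morulae and -0.19 between the late 2-cell stage and ES cells, and nearer to 0 for the other pairs. The response of *Gabpb1* was smaller at the late 2-cell stage than in ES cells by 1.52 ± 0.20 (the difference is -1.52, SE, adjusted p = 3.1e-05), in a comparison in which 22.9% of all genes differed. That difference passed under every alternative run, limma on log2(TPM + 1) included. *Gabpb2* also differed between these stages (-1.19 ± 0.25, adjusted p = 0.0019), but on the log2(TPM + 1) scale limma gave -0.12 (adjusted p = 0.76). *Gabpa* differed by -0.48 ± 0.16 (adjusted p = 0.042), which was lost under library totals, DESeq2, limma and most fits without 1 library. *Gabpb1* rose less in morulae and in the ICM than in ES cells (-0.81 ± 0.22 in each, adjusted p = 0.015 and 0.016, beside 20.3% and 17.4% of all genes). The log2 change of *Gabpb2*, which passed no test in morulae, was smaller there than in ES cells (-1.0 ± 0.28, adjusted p = 0.016). *Gabpb1* rose less at the late 2-cell stage than in morulae (-0.71 ± 0.20, adjusted p = 0.042, where 6.47% of genes differed) and than in the ICM (-0.71 ± 0.20, adjusted p = 0.018, where 20.3% differed). Its difference from morulae was also lost under library totals, DESeq2 and a replicate block. The same held with only the libraries of the 2 stages and in most fits without 1 library. Between morulae and the ICM, where 16.1% of genes differed, none of the 3 passed by edgeR, and none did at an unadjusted p of 0.05, by DESeq2 or by limma. Apart from *Gabpb1* between the late 2-cell stage and ES cells, each of these calls was lost under limma on log2(TPM + 1).

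Counts and TPM part where the transcripts that RSEM assigns reads to differ in length, since TPM divides by an abundance-weighted length. The coding transcripts of *Gabpa* are 2202 and 4987 bases long, share the stop codon and differ at the 3′ end. The weighted length of *Gabpa* was 2396 to 2557 bases in the late 2-cell libraries and 4228 to 4899 in morulae. In the ICM the controls stood at 3874 and 3735 bases and the treated libraries at 2941 and 3002, so that the TPM fold exceeded the count fold there. In ES cells the controls stood at 2862 and 3430 bases and the treated libraries at 3281 and 3296. *Gabpb2*, whose coding transcripts run from 1539 to 8661 bases, was weighted at 1320 to 2080 bases in the late 2-cell libraries and at 5852 to 6668 in morulae. In ES cells it was weighted at 2794 and 3351 bases in controls and at 4373 and 4274 after dTAG13, where the count fold exceeded the TPM fold. *Gabpb1* held between 1535 and 2046 bases in all 18 libraries. Over the 4 stages no treatment difference in weighted length passed (two-sided exact permutation test, adjusted p = 0.22, 0.16 and 0.42 for *Gabpa*, *Gabpb1* and *Gabpb2*). These lengths are estimates of the isoform mix by RSEM from short reads, and no isoform was measured directly.

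**Figure D4:**
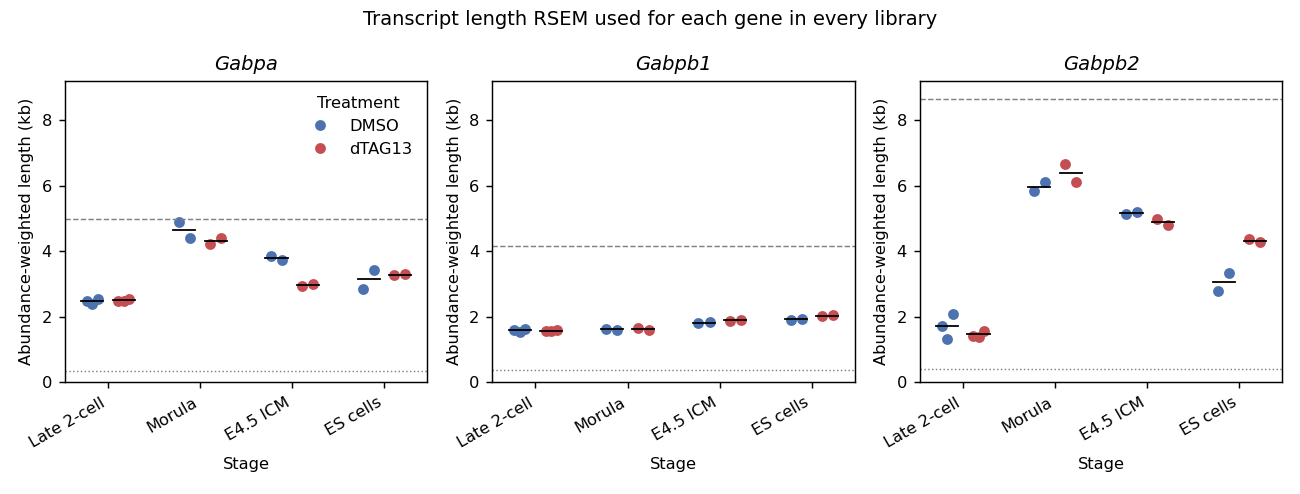
Abundance-weighted transcript length in kb that RSEM used for each gene in every DMSO (blue) and dTAG13 (red) library, with group means as solid lines and the longest (dashed) and shortest (dotted) annotated transcript. *Gabpb1* stays near 1.5 to 2.0 kb, while *Gabpa* and *Gabpb2* are longest in morulae.

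Each gene has a neighbour on the opposite strand whose start lies within 2 kb, and the libraries were not stranded, so reads from overlapping exons cannot be told apart. *Atp5j*, which encodes a subunit of mitochondrial ATP synthase, starts 700 bases from *Gabpa* and overlaps 397 of its exon bases, 6.98% of them. It moved against *Gabpa*: its counts fell by 0.90 ± 0.10 on the log2 scale at the late 2-cell stage (SE, adjusted p = 0.00030), by 0.79 ± 0.02 in the ICM (adjusted p = 4.9e-27) and by 0.27 ± 0.10 in ES cells (adjusted p = 0.049), with -0.13 ± 0.19 in morulae (adjusted p = 0.81). Its level in control ES cells was 2090 ± 104 TPM (SD, n = 2). The non-coding *Gm27003* starts 421 bases from *Gabpb1* and shares 14 exon bases with it, and its group means were at most 2.57 TPM. The non-coding *Gm16740* starts 459 bases from *Gabpb2* and overlaps 328 exon bases, 2.12% of them. It had 2.43 and 2.78 TPM in control ES cells and 0.43 and 0.48 with dTAG13, and its counts fell by 2.42 ± 0.34 (SE, adjusted p = 0.0014), while those of *Gabpb2* rose. Of the 31-base words of each gene's transcripts, 5.51% for *Gabpa*, 0.99% for *Gabpb1* and 3.72% for *Gabpb2* also occur in transcripts of another gene, on either strand.

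The genes with the most similar pattern over the 18 libraries were found among 12032 genes by Pearson's r of log2(TPM + 1). The points share libraries and the fall after the late 2-cell stage, so r describes these libraries and carries no test. For *Gabpa* they were *Mis12* (0.99), *Daam1* (0.99) and *Socs4* (0.99), for *Gabpb1* *Usp15* (0.97), *Zmym2* (0.96) and *Adm* (0.96), and for *Gabpb2* *Nktr*, *Prkcd* and *Scml2* (0.99 each). Among the subunits themselves r was 0.98 between *Gabpa* and *Gabpb2*, 0.95 between *Gabpa* and *Gabpb1* and 0.90 between *Gabpb1* and *Gabpb2*.

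The other genes of the pathway were followed in a list of 12 partners and coactivators, such as *Hcfc1*, a GABPB-binding cofactor, and the coactivator acetyltransferases *Ep300* and *Crebbp*. At the late 2-cell stage and in morulae, 0 of the 11 tested passed by edgeR in either direction, and 0 did at an unadjusted p of 0.05, by DESeq2 or by limma, beside 1.32% higher and 7.24% lower of all genes in the former and 0.161% and 0.205% in the latter. In the ICM 8 of 11 rose and 2 fell (38.4% and 38.5% of all genes), with a median log2 change of 0.22 beside 0.01 over all genes. In ES cells 5 of 10 rose and 1 fell (26.5% and 28.1%), with a median of 0.63 beside 0.03. *Crebbp* rose by 0.44 ± 0.04 in the ICM and 0.64 ± 0.14 in ES cells (SE, adjusted p = 1.4e-11 and 0.0077). *Nrf1*, another activator of nuclear genes for mitochondrial proteins, fell by 0.88 ± 0.06 and by 0.86 ± 0.16 (adjusted p = 7.8e-17 and 0.0039).

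Of 10 textbook targets of GABP, 6 fell at the late 2-cell stage, where 7.24% of all genes fell, and their median log2 change was -0.55 beside 0.02 over all genes. *Tfam*, the activator of mitochondrial DNA transcription, fell by 2.00 ± 0.30 and *Tyms*, which encodes thymidylate synthase, by 2.18 ± 0.22 (SE, n = 3 and 3, adjusted p = 0.0019 and 0.00011), at the stage where *Gabpa* and *Gabpb1* rose. In morulae 0 of the 10 passed by edgeR, 0 at an unadjusted p of 0.05 and 0 by DESeq2 or limma, and *Tfam* gave -0.31 ± 0.20 (adjusted p = 0.53). In the ICM 7 fell and 2 rose (38.5% and 38.4% of all genes), with a median of -0.45, and in ES cells 5 fell and 3 rose (28.1% and 26.5%), with a median of -0.50. *Sdhb*, a subunit of respiratory complex II, fell by 0.60 ± 0.14 at the late 2-cell stage, fell by 0.63 ± 0.03 in the ICM and fell by 1.39 ± 0.10 in ES cells (adjusted p = 0.024, 1.2e-21 and 0.00012). *Rb1*, the retinoblastoma gene, rose in ES cells by 3.41 ± 0.29 (adjusted p = 0.00020), from 1.77 and 0.96 TPM to 11.04 and 6.13. In the ICM its counts rose by 1.23 ± 0.23 (adjusted p = 9.7e-06), but its TPM overlapped between groups, at 2.95 and 3.70 with DMSO and 1.68 and 3.90 with dTAG13. *Tfb2m*, a mitochondrial transcription factor counted among the genes that fell in the ICM, likewise had overlapping TPM there, at 21.1 and 18.4 with DMSO and 19.6 and 24.6 with dTAG13.

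**Figure D5:**
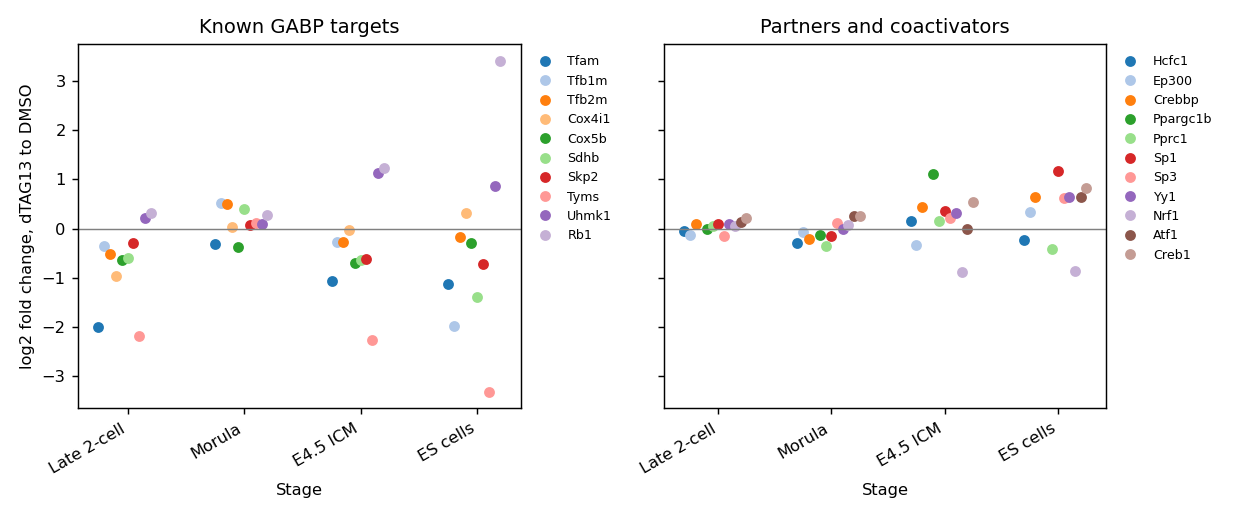
log2 fold change, dTAG13 to DMSO, of each tested gene of the target list (left) and the partner list (right) at the 4 stages, from edgeR. *Tyms* and *Tfam* lie lowest at the late 2-cell stage, at -2.18 and -2.00, while the partners lie near 0 there and in morulae.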

How the data were processed

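RNA-seq libraries were made with SMART-Seq v4 and Nextera XT, without strand information. Per the paper's methods, the authors trimmed reads with Trimmomatic (0.39 in the submitters' processing notes), aligned them with STAR and quantified genes with RSEM on GRCm38. The deposited tables give estimated counts (RSEM expected counts), which are not normalized, TPM and FPKM, which the authors' RSEM run scaled for depth and transcript length, and the abundance-weighted length.

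Rounded expected counts went into the quasi-likelihood test of edgeR (4.0.16, under R 4.3.3) after TMM scaling. A gene was kept if it reached 10 counts in 3 libraries at the late 2-cell stage or in 2 libraries in the other fits. Adjusted p-values follow Benjamini and Hochberg and cover every gene in a fit. SE is the log2 change divided by the square root of F. An adjusted p under 0.05 was called, and the stricter rule is that of the study. DESeq2 1.42.0 and limma 3.58.1 were alternatives, with other scalings, filters, libraries and a replicate block. Exact permutations exchanged labels within stages, on log2 TPM. Permutations ran in Python 3.11.15 (numpy 2.4.6, scipy 1.17.1). Symbols came from GENCODE M21, in which 54487 identifiers matched with their version and 55144 without it.

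Named genes are the members, genes whose start lies within 2 kb of a member's or whose exons overlap its exons, the 3 genes most alike to each member with a mean TPM of at least 5 in 1 group, and lists of 12 partners and 10 targets, from which examples were chosen after their values were seen. The members and lists were chosen with earlier results of these data known. On simulated counts with 100 genes changed at each fold, the edgeR fit recovered 100% of 4-fold changes and 85% of 2-fold changes in the late 2-cell comparison of 17421 genes, and 100% and 59% in the morula comparison of 13667 genes. In the ICM it recovered 96% and 73%, and in ES cells 100% and 65%. Of simulated differences of effect between the ICM and ES cells, the 18-library fit recovered 96% at 4-fold and 23% at 2-fold. The same spread between libraries was simulated throughout. It lay below the edgeR estimate at the late 2-cell stage and in morulae and above that in the ICM, so these rates do not give the power in the data. Totals of 9457933 to 27660132 expected counts per library set the counting error, which the replicate spread exceeded in every group.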

Additional observations from a re-analysis of the deposited data

Results flagged for a closer look

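The response of the subunit genes to dTAG13 differed between stages in 8 of the 18 comparisons of 3 genes over 6 pairs of stages, by the test of the difference in 1 edgeR fit, while 6.47% to 22.9% of all genes differed for a given pair of stages. All of these calls but that of *Gabpb1* between the late 2-cell stage and ES cells were lost under limma on log2(TPM + 1), and a replicate block ended those of *Gabpb1* between late 2-cell and morula (adjusted p = 0.076) and of *Gabpa* between late 2-cell and ES cells (adjusted p = 0.086). For *Gabpb1*, the late 2-cell log2 change differed from that in morulae by -0.71, from that in the ICM by -0.71 and from that in ES cells by -1.52, the morula change from that in ES cells by -0.81 and the ICM change from that in ES cells by -0.81. For *Gabpb2*, the late 2-cell change differed from that in ES cells by -1.19 and the morula change from that in ES cells by -1.0. For *Gabpa*, the late 2-cell change differed from that in ES cells by -0.48. These comparisons share libraries, the stages differ in the length of treatment and in cell type, and dTAG13 was used at 1 µM in embryos and 0.5 µM in ES cells, so that stage, dose and duration cannot be told apart. No group holds the 4 libraries that a check for a library apart from its group would need.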

How the results depend on the processing

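The rises of *Gabpa* and *Gabpb1* kept their direction at every stage under every alternative. Under upper-quartile scaling the median of all genes moved to 0.14 at the late 2-cell stage, 0.11 in the ICM and 0.21 in ES cells. How small a change could be called followed the spread between libraries, which was lowest in the ICM. Where leaving out a library left 1 in a group, it was assumed to vary like the others.

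On limma with log2(TPM + 1), *Gabpb1* in morulae (1.26) and *Gabpb2* in ES cells (0.45) lost their calls, as they did with log2(TPM + 0.1) (1.29 and 0.56). Members meeting the stricter rule were then 0 in morulae, 2 in the ICM and 1 in ES cells on both scales, and 2 in the ICM with upper-quartile scaling or library totals. In 1 fit of all 18 libraries *Gabpa* in morulae gained a call (0.81) and *Gabpb2* in the ICM lost it (0.44). Genes called in morulae were 50 as reported, 128 with library totals, 369 without a filter, 161 by DESeq2, 9 and 10 by limma with the pseudocounts 1 and 0.1, and 392 with the replicate block.

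Replicate numbers did not pair the libraries. Deviations of same-numbered libraries correlated at 0.033 to 0.09 at the late 2-cell stage, 0.021 in morulae, -0.013 in the ICM and -0.18 in ES cells, and at the late 2-cell stage each library correlated best with its own number. With the replicate block *Gabpa* in morulae gained a call (0.74), and the block ended the differences of *Gabpb1* between late 2-cell and morula (-0.73) and of *Gabpa* between late 2-cell and ES cells (-0.47). It changed no other call. With the ES numbers crossed, chosen after seeing the data, 2 members met the stricter rule, as without it, and 8917 genes were called beside 8469.

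Among differences between stages, library totals ended *Gabpb1* late 2-cell minus morula (-0.48) and *Gabpa* late 2-cell minus ES (-0.38), and turned uncalled values to 0.0497 (*Gabpb2*, late 2-cell minus morula), -0.19 (*Gabpb1*, morula minus ICM) and 0.0385 (*Gabpa*, ICM minus ES). DESeq2 ended the same calls (-0.54 and -0.38), gave *Gabpb2* ICM minus ES a call (-0.73), and turned *Gabpb1* morula minus ICM (-0.10) and *Gabpa* ICM minus ES (0.0134). With only the libraries of the 2 stages those calls were lost too (-0.69 and -0.49), *Gabpb2* ICM minus ES was called (-0.75), and *Gabpb1* morula minus ICM turned to -0.0745. Limma on log2(TPM + 1) ended *Gabpb1* late 2-cell minus morula (-0.52), late 2-cell minus ICM (-0.56), morula minus ES (-0.63) and ICM minus ES (-0.59), *Gabpa* late 2-cell minus ES (-0.13), and *Gabpb2* late 2-cell minus ES (-0.12) and morula minus ES (-0.43). It called *Gabpa* late 2-cell minus ICM (-0.72). It turned *Gabpb2* late 2-cell minus morula (0.31), *Gabpb1* morula minus ICM (-0.0357), *Gabpa* morula minus ES (0.0575) and ICM minus ES (0.59), and *Gabpb2* ICM minus ES (0.0126). The cause was not tested.

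In controls, upper-quartile scaling turned *Gabpb1* ICM minus morula (-0.0671) and ES minus ICM (0.0309) and ended *Gabpb2* ES minus ICM (-0.51), as did no filter (-0.59). Library totals called *Gabpa* (-0.85) and *Gabpb1* (-0.58) as lower in ES than ICM, as did limma (-0.63 and -0.78), which lost *Gabpb2* (-0.37) and turned *Gabpa* (0.47) and *Gabpb2* (0.32) ICM minus morula, and the fit of 18 libraries called *Gabpa* ES minus ICM (-0.38). Over all stages, the *Gabpb1* to *Gabpa* ratio lost its call without morulae (0.42) or ES cells (0.19) and *Gabpb2* without ES cells (0.30), where the *Gabpb2* length turned to -0.0618.

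Leaving out 1 library at a time gave these ranges where a call or direction changed. Effects ranged from 0.41 to 0.62 for *Gabpa* and -0.0486 to 0.0881 for *Gabpb2* at the late 2-cell stage, and from 1.01 to 1.60 for *Gabpb1* and -0.12 to 0.40 for *Gabpb2* in morulae. Members meeting the stricter rule were 0 to 1 in morulae and 1 to 2 in ES cells, and genes called were 43 to 647 in morulae and, without ES dTAG13 replicate 2 the fewest, 5256 to 10552 in ES cells. Differences for *Gabpb1* ranged from -1.05 to -0.44 (late 2-cell minus morula), -0.71 to -0.53 (late 2-cell minus ICM), -0.26 to 0.35 (morula minus ICM), -1.08 to -0.47 (morula minus ES) and -0.87 to -0.72 (ICM minus ES), for *Gabpb2* from -0.41 to 0.0675 (late 2-cell minus morula), -1.27 to -0.77 (morula minus ES) and -1.05 to -0.54 (ICM minus ES), and for *Gabpa* from -0.48 to -0.29 (late 2-cell minus ICM), -0.52 to -0.28 (late 2-cell minus ES) and -0.0656 to 0.0376 (ICM minus ES). In controls they were -0.10 to 0.51 for *Gabpb1* ICM minus morula and -0.91 to -0.40 for *Gabpb2* ES minus ICM.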
